A study of Mus musculus with 8 samples.

Results

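The genes described here encode cytotoxic granule proteins and the T-box factors that drive them. They are the granzyme genes Gzma, Gzmb, Gzmc, Gzmk and Gzmm, the granule genes Prf1, Nkg7 and Ctsw, and the transcription factor genes Eomes and Tbx21. Members were chosen by name, and those probe sets were taken that the platform annotation gives to exactly 1 gene symbol. This gave 12 probe sets for the 10 genes, of 34945 probe sets for 18193 genes in all, and the probe set with the highest mean over the 8 arrays stood for its gene. Prf1 and Eomes had 2 probe sets each and every other member had 1.

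Killer T cells and natural killer (NK) cells store granzymes, a family of serine proteases, in secretory granules together with perforin. On contact with a target cell the granules are released, perforin opens the way through the membrane and the granzymes cleave proteins inside the target. Most developing T cells of the thymus do not carry such granules, and the T-box factors T-bet and Eomes are known to switch on much of the program in mature killer lymphocytes.

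Expression was measured in T29 cells, a thymic lymphoma line of the mouse that the series text calls Ikaros-deficient, so that all groups share this background. Ikaros is the product of Ikzf1, a DNA-binding protein that lymphocytes need to mature. Cells carried MigR1-Ik1ER, a retroviral construct for an inducible Ikaros protein (Ik1ER cells), or MigR1, the vector without it (MigR1 cells). They were kept for 24 h in 100 nM 4OHT (4-hydroxytamoxifen, which activates proteins fused to a modified estrogen receptor domain) or in ethanol, its solvent. The 4 groups of 2 arrays were Ik1ER cells in 4OHT, Ik1ER cells in ethanol, MigR1 cells in 4OHT and MigR1 cells in ethanol. Whether either line is a clone or a pool was not given. The labels do not say that replicates were grown apart, and the p-values cover no more than the variation among the arrays, possibly technical in part.

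The values are log2 expression values, on which a difference of 1 is a doubling of the signal. In the check of the labels, 1 of the 2 probe sets of Ikzf1 read 10.45 to 11.27 on the 4 Ik1ER arrays, against 8.12 to 8.51 on the 4 MigR1 arrays. The other lay between 9.97 and 10.44 on all 8, so that both were far above background in MigR1 cells. For Esr1, which encodes the estrogen receptor, the brightest probe set read 6.55 to 7.38 on the Ik1ER arrays, against 5.68 to 6.42 on the MigR1 arrays. The replicate 2 arrays of Ik1ER cells stood apart in a control for RNA integrity, the difference between the 3' and 5' probe sets of the transferrin receptor. It was 1.91 in 4OHT and 1.66 in ethanol, against at most 1.39 on the other 6 arrays. As a gauge of background, the 27 probe sets for Bacillus genes had means of up to 5.27. Over the 8 arrays 5 of the 10 members read above this on average, namely Gzma, Gzmm, Prf1, Ctsw and Tbx21. In RNA from a whole culture, a change in the number of cells that express a gene cannot be told apart from a change in RNA per cell.

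When 4OHT was given to Ik1ER cells, 3 of the 10 genes rose, those of granzyme A, perforin and the granule protease cathepsin W, and none fell. Gzma rose 1.94-fold, Ctsw 1.53-fold and Prf1 1.43-fold. Over all genes 5.34% passed the same test in either direction, 2.8% higher and 2.53% lower (limma, adjusted p under 0.05 over 18193 genes). The median log2 difference of the 10 members was 0.08, and that of all genes -0.004. The other 7 members were not called. The arrays in 4OHT and ethanol did not overlap for 7 members, 5 higher and 2 lower, against 42.7% of all genes (21% higher and 21.7% lower), so that separation alone is common. For Nkg7, counted as higher, the closest arrays read 4.5481 in 4OHT and 4.5480 in ethanol, both below the gauge. In MigR1 cells none of the 10 was called.

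Gzma encodes granzyme A, a protease that cleaves after basic residues. It read 13.76 and 13.63 in Ik1ER cells in 4OHT, against 12.80 and 12.67 in Ik1ER cells in ethanol. Its values were 13.09 and 12.80 in MigR1 cells in 4OHT, against 13.04 and 12.81 in MigR1 cells in ethanol. Both induced arrays lay above all 6 others, and the gene was far above the background gauge in every group, with or without induced Ikaros. The difference in Ik1ER cells was 0.96 (SE 0.12, limma, adjusted p = 0.00482). In group means (± SD, n = 2) the order was Ik1ER cells in 4OHT (13.69 ± 0.09), MigR1 cells in 4OHT (12.95 ± 0.21), MigR1 cells in ethanol (12.92 ± 0.17) and Ik1ER cells in ethanol (12.74 ± 0.09). Neither the groups of MigR1 cells nor the lines in ethanol were called apart, and Ik1ER cells in ethanol were not compared with MigR1 cells in 4OHT. The call held when any 1 array was left out (adjusted p at most 0.0388), and was lost without both replicate 2 arrays of Ik1ER cells (0.96, adjusted p = 0.0751). For the effect of 4OHT in Ik1ER cells, that last setting compares 1 array with 1 array. Between the lines in 4OHT it compares 1 Ik1ER array with 2 MigR1 arrays. Wherever it is used, its spread comes from the MigR1 arrays alone.

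Ctsw encodes cathepsin W, a cysteine protease found in killer T cells and NK cells. Its probe set read 7.04 and 7.03 in Ik1ER cells in 4OHT, against 6.42 and 6.41 in Ik1ER cells in ethanol. In MigR1 cells the values were 6.53 and 6.15 in 4OHT, against 6.41 and 6.31 in ethanol. The induced arrays were again above the other 6, while the 2 MigR1 arrays in 4OHT differed from each other by more than the arrays of any other group. The difference in Ik1ER cells was 0.61 (SE 0.12, limma, adjusted p = 0.0226). The call was lost when any 1 of the 4 Ik1ER arrays was left out (adjusted p from 0.0746 to 0.116) and without both replicate 2 arrays (0.203), while the difference itself stayed between 0.61 and 0.62.

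Prf1 encodes perforin, which forms pores in the target membrane. Its brighter probe set read 5.90 and 6.01 in Ik1ER cells in 4OHT, against 5.40 and 5.47 in Ik1ER cells in ethanol. The MigR1 arrays read 5.69 and 5.45 in 4OHT, against 5.64 and 5.51 in ethanol. The groups of Ik1ER cells were separate by this probe set, whose values all lay within 1 log2 unit of the background gauge. The difference was 0.52 (SE 0.10, limma, adjusted p = 0.0225).

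The dimmer probe set of Prf1 did not follow. It read 4.91 and 5.03 in Ik1ER cells in 4OHT, against 4.99 and 5.29 in Ik1ER cells in ethanol, with a mean below the gauge. The groups overlapped, and the difference was -0.16 (SE 0.12, limma, adjusted p = 0.638 over 34945 probe sets). With the mean of both probe sets, the difference of Prf1 was 0.18 and not called (adjusted p = 0.314). The call of the brighter probe set was also lost without any 1 of the 4 Ik1ER arrays (adjusted p from 0.0536 to 0.125) and without both replicate 2 arrays (0.178), and with a fit to the Ik1ER arrays alone (0.0559). Of the 3 calls, that of Prf1 thus rests on 1 of 2 probe sets.

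**Figure D1:**
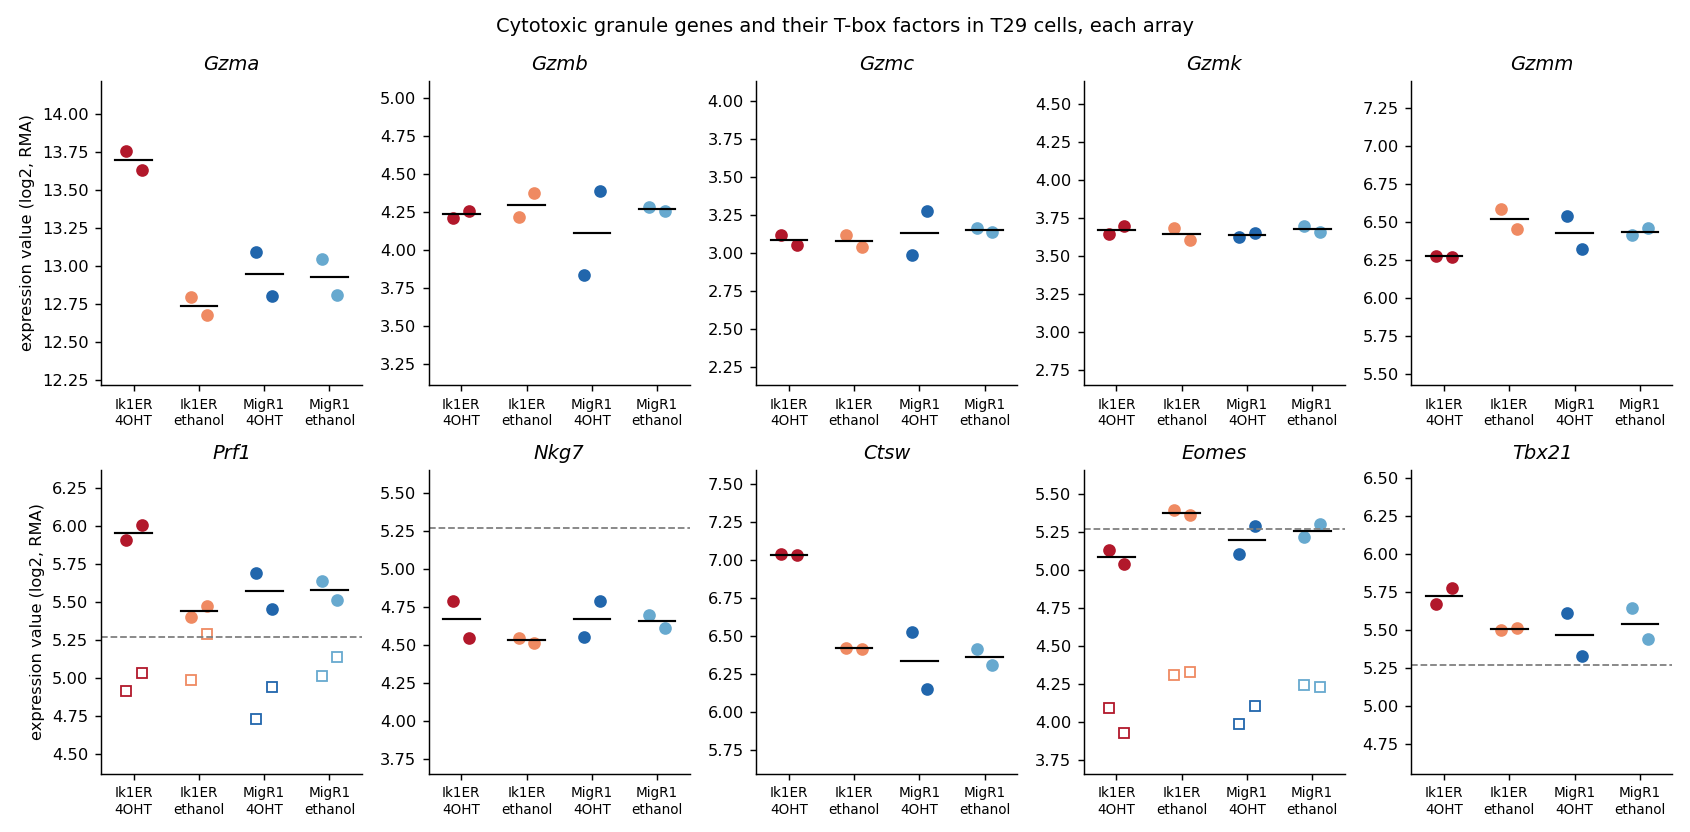
Expression values (log2, vertical axis, 1 scale per panel) of the 10 genes on each of the 8 arrays, by group. Filled circles are the probe set that stood for the gene, with a line at the group mean, open squares the second probe set of Prf1 and Eomes, and the dashed line the highest Bacillus control mean (5.27) where it falls in the panel. Gzma, Ctsw and the brighter Prf1 probe set are highest on both arrays of Ik1ER cells in 4OHT.

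The 250 bases before the annotated start of Gzma and Prf1 are shown, as the called members with a window. Those of Gzmb are set beside them, as a granzyme gene that read below the gauge in all groups. The call of Prf1 rests on 1 of its 2 probe sets. The windows come from RefSeq (GRCm38.p6), which gave them for 9 of the 10 members, all but Ctsw. They are written 5' to 3' on the strand of the gene. Capitals mark the core of the Ikaros motif, GGGAA, or TTCCC where it lies on the opposite strand.
Gzma, chr13:113100982-113101231, minus strand: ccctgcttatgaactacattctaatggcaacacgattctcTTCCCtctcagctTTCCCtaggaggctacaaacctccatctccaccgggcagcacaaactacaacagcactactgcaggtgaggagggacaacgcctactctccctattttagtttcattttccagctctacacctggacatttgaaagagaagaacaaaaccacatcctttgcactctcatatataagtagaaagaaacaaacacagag
Prf1, chr10:61297586-61297835, plus strand: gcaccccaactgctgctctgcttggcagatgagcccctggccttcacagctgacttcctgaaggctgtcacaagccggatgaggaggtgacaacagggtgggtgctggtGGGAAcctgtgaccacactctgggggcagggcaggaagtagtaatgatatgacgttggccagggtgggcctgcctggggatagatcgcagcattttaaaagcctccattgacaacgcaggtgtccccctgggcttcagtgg
Gzmb, chr14:56262335-56262584, minus strand: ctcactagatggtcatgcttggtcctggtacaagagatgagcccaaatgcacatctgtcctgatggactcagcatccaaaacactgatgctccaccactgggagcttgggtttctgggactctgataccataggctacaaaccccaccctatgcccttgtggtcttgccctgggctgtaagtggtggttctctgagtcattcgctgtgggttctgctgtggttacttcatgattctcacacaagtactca
The Gzma window held 2 matches, which begin 210 and 197 bases before the start, and the Prf1 window held 1, at 141 bases. The window of Gzmb held none, while that of Gzmk, also below the gauge on every array, held 1. In all, 5 of the 9 members with a window held a match, namely Gzma, Prf1, Gzmk, Nkg7 and Tbx21, and 56.2% of all 32851 windows of this length did. Such a short motif is thus found in the majority of promoters, and its core contains the ETS core GGAA, which 93.4% of windows held. The RUNX motif TGTGGT, searched on both strands, was in the windows of Gzma, Prf1 and Gzmb and of 6 of the 9 members, against 14.0% of all windows. The T-box motif GGTGTGA was in none of the 3 windows shown, in those of 3 of the 9 members (Gzmk, Gzmm and Nkg7) and in 3.3% of all. A match is a description of letters and not of a bound site.

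The other granzymes did not pass the test. Gzmm encodes granzyme M, which prefers to cleave after methionine or leucine. It read 6.28 and 6.27 in Ik1ER cells in 4OHT, against 6.58 and 6.46 in Ik1ER cells in ethanol. The MigR1 arrays read 6.54 and 6.33 in 4OHT, against 6.42 and 6.46 in ethanol. Its groups in Ik1ER cells did not overlap, in the direction opposite to that of Gzma. The difference was -0.24 (95% confidence interval -0.45 to -0.04, limma, adjusted p = 0.201). It fell short of the threshold, while its arrays in MigR1 cells overlapped.

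Gzmb, Gzmc and Gzmk, for granzymes B, C and K, read below the background gauge on every array. Granzyme B, which cleaves after aspartate and activates caspases, is the granzyme best known from activated killer T cells. Gzmb read 4.21 and 4.26 in Ik1ER cells in 4OHT, against 4.21 and 4.38 in Ik1ER cells in ethanol. The MigR1 arrays read 3.84 and 4.39 in 4OHT, against 4.28 and 4.26 in ethanol. The groups overlapped in both lines. The difference in Ik1ER cells was -0.06 (95% confidence interval -0.43 to 0.30). Gzmc ranged from 2.98 to 3.28 and Gzmk from 3.60 to 3.70 over the 8 arrays. Their differences in Ik1ER cells were 0.01 (-0.23 to 0.24) and 0.03 (-0.14 to 0.19). At values this low the arrays can neither show nor exclude small changes.

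Nkg7 encodes a granule membrane protein of killer lymphocytes. It read 4.79 and 4.55 in Ik1ER cells in 4OHT, against 4.55 and 4.52 in Ik1ER cells in ethanol. MigR1 cells gave 4.56 and 4.79 in 4OHT, against 4.70 and 4.62 in ethanol. All of these are below the gauge, and the range of the MigR1 arrays covered nearly that of the Ik1ER arrays. The difference in Ik1ER cells was 0.14 (-0.11 to 0.39, limma, adjusted p = 0.604).

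The T-box factor genes were not called either, and their values moved in opposite directions in Ik1ER cells. Eomes read 5.13 and 5.04 in Ik1ER cells in 4OHT, against 5.40 and 5.36 in Ik1ER cells in ethanol. Its values in MigR1 cells were 5.10 and 5.29 in 4OHT, against 5.22 and 5.30 in ethanol. The induced arrays were lower than the ethanol arrays of the same line, but overlapped with MigR1 cells in 4OHT. The difference was -0.29 (95% confidence interval -0.49 to -0.09, limma, adjusted p = 0.108), and the second Eomes probe set gave -0.31 (adjusted p = 0.123 over 34945 probe sets). With a mean near the gauge for 1 probe set and below it for the other, the level of Eomes is close to what the arrays can resolve.

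Tbx21 encodes T-bet. It read 5.67 and 5.78 in Ik1ER cells in 4OHT, against 5.50 and 5.51 in Ik1ER cells in ethanol. In MigR1 cells it read 5.61 and 5.33 in 4OHT, against 5.64 and 5.44 in ethanol. The induced arrays were the highest of the 8, but the closest MigR1 array was 5.64. The difference in Ik1ER cells was 0.22 (95% confidence interval -0.04 to 0.48, limma, adjusted p = 0.379). Gzma and Ctsw were called in this comparison and neither T-box gene was. The part of the T-box factors in these rises was not tested.

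**Figure D2:**
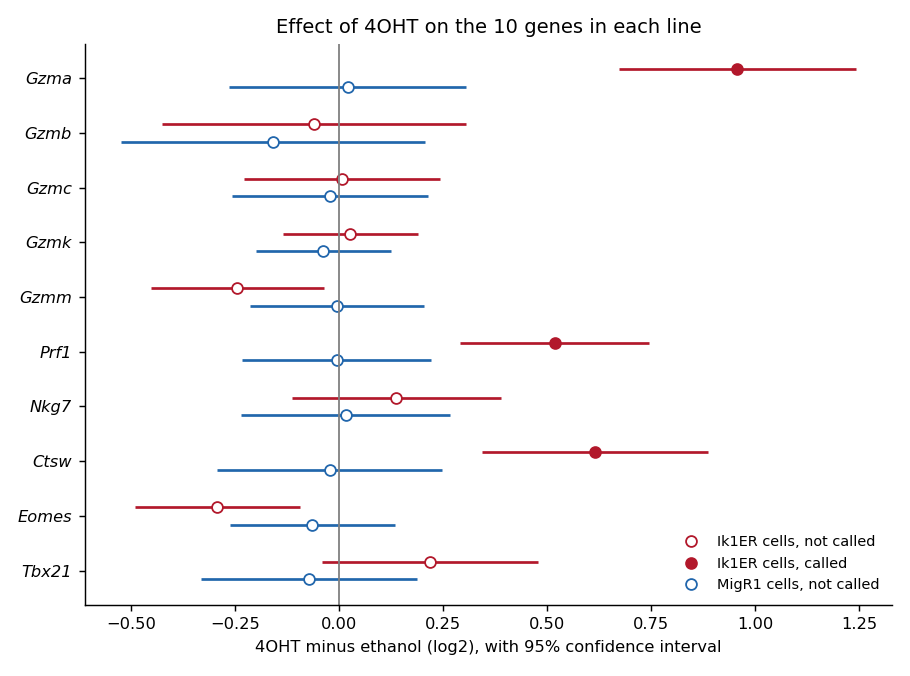
Difference between 4OHT and ethanol (log2, horizontal axis) for each gene, in Ik1ER cells (red, upper of each pair) and in MigR1 cells (blue, lower). Points are limma estimates with 95% confidence intervals from 2 arrays per group, and filled points have an adjusted p under 0.05. Gzma (0.96), Ctsw (0.61) and Prf1 (0.52) are called in Ik1ER cells, and no gene is called in MigR1 cells.

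Treatment of MigR1 cells with 4OHT asks what the inducer does without Ik1ER. limma called 0 of the 10 members, and 0 had an unadjusted p under 0.05. It called 0 of 18193 genes in all (0%), while 179 higher and 207 lower genes had an unadjusted p under 0.05. Gzma differed by 0.02 (95% confidence interval -0.26 to 0.30), Ctsw by -0.02 (-0.29 to 0.25) and Prf1 by -0.01 (-0.23 to 0.22). These intervals lie below the estimates of the same genes in Ik1ER cells, but this leaves out the error of those estimates and does not compare the lines.

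Whether the response differed between the lines was tested as the difference between the 4OHT effects. limma called 0 of the 10 members there, against 1.26% of all genes (0.616% higher and 0.649% lower), and 3 had an unadjusted p under 0.05. Gzma was just outside the threshold, with an effect that was larger in Ik1ER than in MigR1 cells by 0.94 (SE 0.17, adjusted p = 0.0521). For Ctsw the difference was 0.64 (SE 0.17, limma, adjusted p = 0.143). For Prf1 it was 0.52 (SE 0.14, limma, adjusted p = 0.149). For Gzma the outcome depended on the setting, since 5 of 17 other settings called it, with adjusted p from 0.0127 to 0.187. Among those that did were a fit with the replicate number as a block (limma, adjusted p = 0.0127), trend and robust moderation (0.0292) and the filter on dim genes (0.0422).

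Between the lines in 4OHT, 2 of the 10 members were higher in Ik1ER than in MigR1 cells and none was lower, against 5.08% called of all genes (2.91% higher and 2.17% lower). Gzma differed by 0.75 (SE 0.12, limma, adjusted p = 0.0139) and Ctsw by 0.70 (SE 0.12, adjusted p = 0.0154). Prf1 was 0.39 higher and not called (SE 0.10, adjusted p = 0.0703). This comparison shares its Ik1ER arrays with the one above and is not independent of it. Both calls were lost without Ik1ER 4OHT replicate 1 or without MigR1 4OHT replicate 2 (adjusted p from 0.0555 to 0.0981), and that of Ctsw also without Ik1ER 4OHT replicate 2 (0.0617). Without both replicate 2 arrays of Ik1ER cells neither was called (Gzma 0.81, adjusted p = 0.0659, and Ctsw 0.70, adjusted p = 0.0987).

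In ethanol, before induction, limma called 0 of the 10 members between Ik1ER and MigR1 cells, and 0 had an unadjusted p under 0.05. It called 0 of 18193 genes (0%), with 565 higher and 403 lower at an unadjusted p under 0.05. Gzma was -0.19 in Ik1ER relative to MigR1 cells (95% confidence interval -0.47 to 0.10), Prf1 -0.14 (-0.36 to 0.09) and Ctsw 0.06 (-0.21 to 0.33). All other members lay between -0.12 and 0.12.

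The rest of the granule pathway was read from lists of related genes. Of 16 genes of granule maturation and exocytosis, 2 rose in Ik1ER cells in 4OHT, none fell and 14 were not called, with a median difference of 0.14, against -0.004 over all genes. Over all genes 2.8% rose and 2.53% fell. Serpinb9 encodes a serpin that inhibits granzyme B and protects killer cells from their own granules. It read 7.40 and 7.76 in Ik1ER cells in 4OHT, against 6.79 and 6.87 in Ik1ER cells in ethanol. The groups did not overlap, and the difference was 0.75 (SE 0.11, limma, adjusted p = 0.00964). MigR1 cells gave 7.07 and 7.05 in 4OHT, against 6.89 and 6.80 in ethanol. Leaving out the first Ik1ER array in ethanol ended the call (0.71, adjusted p = 0.0634). Between the lines in 4OHT Serpinb9 was called too (0.52, SE 0.11, limma, adjusted p = 0.0414), but not without any 1 array other than Ik1ER 4OHT replicate 1 (at most 0.210).

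Srgn encodes serglycin, the proteoglycan that packs granzymes and perforin inside the granule. Its values were 11.80 and 11.41 in Ik1ER cells in 4OHT, against 11.09 and 10.98 in Ik1ER cells in ethanol. All MigR1 arrays lay between 11.16 and 11.23. The difference in Ik1ER cells was 0.58 (SE 0.12, limma, adjusted p = 0.0336). This call was lost without any array except Ik1ER 4OHT replicate 2 (adjusted p at most 0.172), and the difference fell to 0.38 without Ik1ER 4OHT replicate 1.

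Further genes of the list are named after their values were seen, and none of them was called. Ctsc encodes cathepsin C, which activates granzymes by removing a dipeptide, and differed by 0.49 (SE 0.13, limma, adjusted p = 0.0863). Cst7 encodes cystatin F, an inhibitor of cathepsin C, and differed by -0.31 (SE 0.09, adjusted p = 0.102). The serpin gene Serpinb6b differed by -0.82 (SE 0.22, adjusted p = 0.0898). The release machinery, with the vesicle tether gene Rab27a, the priming factor gene Unc13d and the fusion genes Stx11 and Stxbp2, gave differences of -0.01, 0.37, 0.30 and 0.02. None of these 4 was called.

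The remaining granzyme genes Gzmd, Gzme, Gzmf, Gzmg and Gzmn had means of 2.81 to 3.37, below the gauge. limma called 0 of these 5, and 0 had an unadjusted p under 0.05. They are close relatives, and a probe set may read more than 1 of them. Of 13 other effector genes of killer lymphocytes limma called 0, and 1 had an unadjusted p under 0.05. Their median difference was -0.04, and 4 of 13 read above the gauge. Those at or below it included Ifng, Fasl and Ccl5, with means of 3.26, 3.45 and 4.45. The gene with the small p was Cd160, a receptor of killer lymphocytes (0.76, SE 0.19, limma, adjusted p = 0.0601).

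Among 16 measured regulators of the program, of 18 listed, 1 rose, none fell and 15 were not called in Ik1ER cells, with a median difference of 0.19. A count of 1 in 16 is near the 5.34% called of all genes. Foxo1, which controls homing and memory genes in T cells, rose by 0.91 (SE 0.15, limma, adjusted p = 0.0125). It read 8.58 and 9.07 in Ik1ER cells in 4OHT, against 7.85 and 7.98 in Ik1ER cells in ethanol. Leaving out either Ik1ER array in ethanol ended the call (adjusted p = 0.0805 for replicate 1 and 0.0541 for replicate 2). Between the lines in 4OHT Foxo1 differed by 1.12 (SE 0.15, limma, adjusted p = 0.00610), a call lost without MigR1 4OHT replicate 2 (1.05, adjusted p = 0.0608).

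Runx3, which drives the killer T cell lineage together with CD8 expression, was also called between the lines in 4OHT (1.22, SE 0.28, limma, adjusted p = 0.0474). Its arrays read 7.39 and 8.09 in Ik1ER cells in 4OHT, against 6.42 and 7.21 in Ik1ER cells in ethanol. All MigR1 arrays lay between 6.43 and 6.60. Each replicate 2 array of Ik1ER cells was above its replicate 1, and the groups in 4OHT and ethanol stayed apart. The 4OHT effect of 0.92 in Ik1ER cells was not called (SE 0.28, adjusted p = 0.115). Without both replicate 2 arrays it was 0.96, between 1 array and 1 array. The line difference was not called when Ik1ER 4OHT replicate 2 was left out (0.87, adjusted p = 0.174) or any 1 of the MigR1 arrays (at most 0.244).

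**Figure D3:**
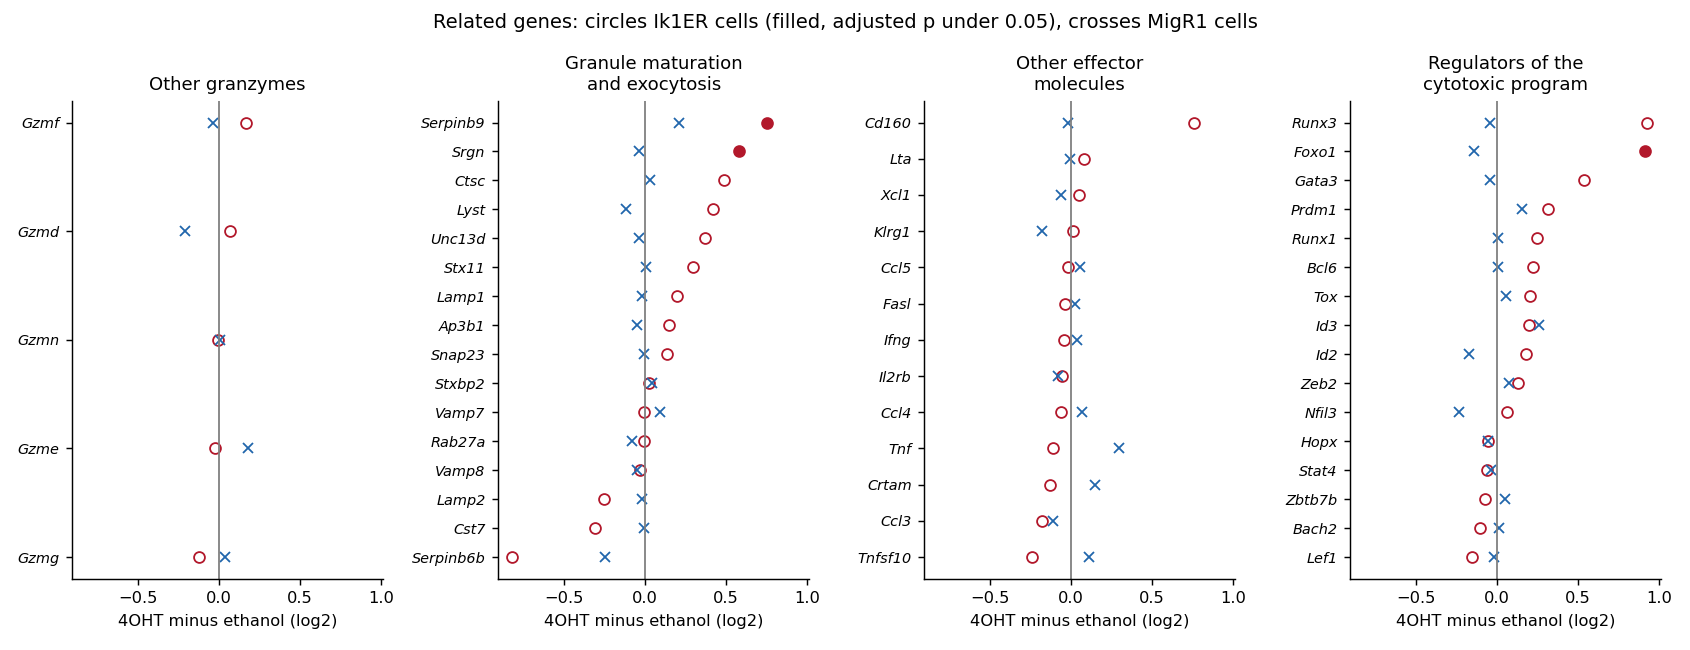
Difference between 4OHT and ethanol (log2, horizontal axis) of the measured genes of 4 related lists, as limma estimates from 2 arrays per group. Circles are Ik1ER cells, filled where the adjusted p is under 0.05, and crosses are MigR1 cells. Serpinb9, Srgn and Foxo1 are the genes called, and the other granzymes cluster around 0.

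The labelled cell type was checked against markers, and other cells that could carry granules were looked for. All 9 measured T lineage markers had a mean above the gauge. In Ik1ER cells 3 of them rose in 4OHT (Cd8a 1.84, Cd2 0.87 and Cd4 0.72) and 3 fell (Cd3g -0.69, Cd3e -0.43 and Cd3d -0.49). The calls of Cd4 and Cd3d were lost in most fits with 1 array left out. Cd2 rose from below the gauge, with 5.25 and 5.15 in Ik1ER cells in ethanol, against 6.19 and 5.94 in 4OHT. Its MigR1 arrays read 4.70 to 5.33, so that its mean passed the gauge only through the induced arrays. The mean of the 9 markers per array was 10.60 to 10.82 in Ik1ER cells in 4OHT, against 10.37 to 10.49 in Ik1ER cells in ethanol and 10.36 to 10.52 on the MigR1 arrays. On the linear scale their summed signal went the other way, with 29650 to 33010 in Ik1ER cells in 4OHT, against 33270 to 35090 in Ik1ER cells in ethanol. Of 9 measured NK cell markers, 0 read above the gauge, limma called 0 and 0 of the 9 rose even at an unadjusted p under 0.05. The mean of the NK list was 3.52 to 3.67 in Ik1ER cells in 4OHT, against 3.63 to 3.65 in Ik1ER cells in ethanol and 3.64 to 3.66 on the MigR1 arrays. Its summed linear signal was 109.5 to 122.3 in Ik1ER cells in 4OHT, against 120.5 to 121.0 in Ik1ER cells in ethanol.

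In Ik1ER cells the mean of the 8 myeloid markers was 4.97 to 5.03 in 4OHT and 5.16 to 5.21 in ethanol. Their summed linear signal was 280.0 to 295.5 in Ik1ER cells in 4OHT, against 358.5 to 377.5 in Ik1ER cells in ethanol and 351.9 to 366.5 on the MigR1 arrays. Of 8 measured, 3 read above the gauge, 1 rose, 2 fell and 5 were not called, with a median difference of -0.04. The 5 not called differed by -0.06 to 0.04, so that the list did not move as a whole. Cd14, a coreceptor for bacterial lipopolysaccharide, fell by 1.26 (SE 0.10, limma, adjusted p = 0.000592), Lyz2 fell by 0.60 (SE 0.11, adjusted p = 0.0225) and Itgam rose by 0.54 from below the gauge (SE 0.10, adjusted p = 0.0208). Of the 8 markers of mast cells and basophils 1 read above the gauge, and limma called 0. Their mean was 4.88 to 4.96 in Ik1ER cells in 4OHT, against 4.79 on both arrays of Ik1ER cells in ethanol and 4.66 to 4.95 on the MigR1 arrays, a range that nearly covers the induced values. Their summed linear signal was 652.3 to 653.4 in Ik1ER cells in 4OHT, against 396.5 to 433.3 in Ik1ER cells in ethanol and 325.7 to 519.4 on the MigR1 arrays. Most of this signal, and of its rise in Ik1ER cells, came from the 1 marker above the gauge, which was not called. Of 6 measured B cell markers 2 read above the gauge and limma called 0, with means of 4.83 to 4.88 in Ik1ER cells in 4OHT, against 4.72 to 4.83 in Ik1ER cells in ethanol and 4.71 to 4.89 on the MigR1 arrays. The part of such cells in the granule gene values was not tested.

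The genes whose values ran most like those of the 3 called members were taken from 10771 genes with a mean above the gauge. Likeness was the Pearson correlation over the 8 arrays. The arrays share the same 4 groups, so that any gene that rose with induction scores high. For Gzma they were Maf (r = 0.994), Tktl1 (0.991) and Cxcr6 (0.991), a transcription factor gene, a transketolase-like gene and a chemokine receptor gene. In Ik1ER cells Maf rose by 1.99 (SE 0.22, limma, adjusted p = 0.00246), Tktl1 by 1.99 (SE 0.18, adjusted p = 0.00108) and Cxcr6 by 2.03 (SE 0.20, adjusted p = 0.00146), against 0.96 for Gzma. For Prf1 they were Smarcal1 (0.983), Arid5a (0.982) and Camk4 (0.982), and for Ctsw Ccnf (0.995), Rgs14 (0.994) and Erap1 (0.992). All of these rose in Ik1ER cells except Ccnf, which was not called (0.26, SE 0.08, limma, adjusted p = 0.116). The calls of Smarcal1, Arid5a, Camk4, Rgs14 and Erap1 did not hold in every fit with 1 array left out. Cxcr6 rose from below the gauge, with 4.89 and 4.66 in Ik1ER cells in ethanol, against 6.88 and 6.73 in 4OHT. Its MigR1 arrays read 4.74 to 5.46, so that its mean passed the gauge only through the induced arrays.

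**Figure D4:**
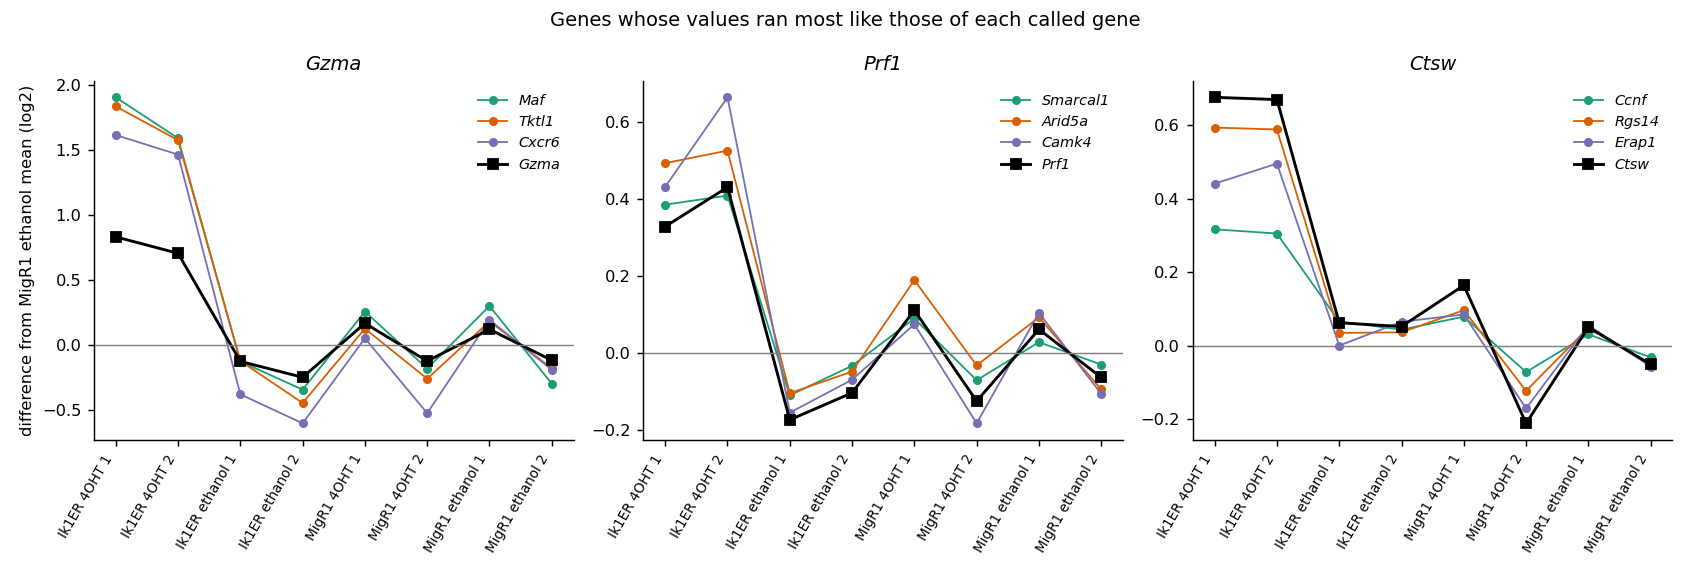
Values on each array (horizontal axis) as the log2 difference from the mean of MigR1 cells in ethanol (vertical axis, 1 scale per panel) for Gzma, Prf1 and Ctsw (black squares) and the 3 genes most like each (circles). The lines join arrays only to guide the eye. In every panel both arrays of Ik1ER cells in 4OHT are above the other 6, and the differences of Maf, Tktl1 and Cxcr6 there are wider than that of Gzma.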

How the data were processed

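Per the labels' protocols, biotin-labelled RNA of T29 cells in 4 groups went onto 8 Affymetrix arrays. The values the authors deposited are log2 expression values of 45101 probe sets. RMA is named in the submitters' processing notes. Its version and any genome build were not given in what was used here. RMA brings arrays to a common distribution, which hides global shifts and compresses changes of dim genes. Array medians ran from 5.36 to 5.43, and the number of arrays limits the precision.

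Symbols came from the platform annotation. Group means of 18193 genes were fitted on all 8 arrays with limma 3.58.1 (lmFit and eBayes) under R 4.3.3, unfiltered and with 4 residual degrees of freedom. Standard errors pool the spread over the groups. P-values were adjusted by Benjamini and Hochberg over all genes within each of 5 contrasts, with calls under 0.05. Confidence intervals (95%) are unadjusted. The fit was tested on simulated data.

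The members and lists were chosen with earlier results of these data known. The text names all members, called genes of the related lists (up to 8 per list for Ik1ER cells, 4 elsewhere), and the 3 genes most like each called member, leaving out predicted and clone-named genes. Markers named are those called. Alternatives were the replicate block, a filter on dim genes, trend and robust moderation, repeated quantile normalization, median centring, other probe set rules, fewer arrays in the fit and a fold threshold.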

Additional observations from a re-analysis of the deposited data

How the results depend on the processing

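Of 94 recomputed counts of called genes or members that were above 0 to begin with, 63 stayed within 1.5 times their value. Of 94 that were 0, 87 stayed at 0, which says nothing of stability. No called value changed sign. A lone array left in a group is assumed to vary like the other groups. In Ik1ER cells 4OHT called 971 genes, against 399 with only the arrays compared, 156 at an absolute log2 difference of at least 1, 389 without both replicate 2 arrays of Ik1ER (chosen after seeing the data) and 441 to 832 with 1 array left out. The 3 members called became 0 at that log2 difference, 0 without both replicate 2 arrays and 1 to 3 with 1 array left out. For the difference between the lines' effects, 230 genes became 444 with trend and robust moderation, 109 at the fold threshold, 90 without both replicate 2 arrays and 52 to 273 with 1 array left out. The members called there were 0, and 1 (Gzma) with the replicate block, the filter on dim genes, trend and robust moderation, repeated quantile normalization or the mean over probe sets. Between the lines in 4OHT, 925 genes became 416 with only the arrays compared, 140 at the fold threshold, 592 without both replicate 2 arrays and 237 to 805 with 1 array left out. The 2 members called became 1 with only the arrays compared, 0 at the fold threshold, 0 without both replicate 2 arrays and 0 to 2 with 1 array left out. Of the counts of 0 over all genes, that of 4OHT in MigR1 cells became 1 when probe sets ending in _x_at stood for a gene solely in the absence of another probe set, and that of the lines in ethanol became 1 with the mean over probe sets. With only the arrays compared, the calls of Serpinb9 (adjusted p = 0.0601), Srgn (0.144) and Foxo1 (0.0671) in Ik1ER cells were lost too. A second threshold can only lower a count. With fewer arrays both the estimates and their errors can change. The cause of a changed call was not tested there or in the other settings.

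Replicate numbers did not pair the samples throughout, since deviations of same-numbered arrays correlated at 0.46 between the groups of Ik1ER cells and 0.25 between those of MigR1 cells, but at -0.04 to 0.17 across lines. The replicate block used the same replicate difference for both lines, and a block within each line was not fitted. With the replicate block 1160 genes and 3 members were called in Ik1ER cells. The difference between effects was then called for 341 genes and for Gzma (0.94, limma, adjusted p = 0.0127).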

Other observations

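Cpa3, the gene of the mast cell carboxypeptidase, is named here after its values were seen. Of the 8 markers of mast cells and basophils it alone read above the gauge. The others differed by -0.19 (Fcer1a) to 0.21 (Cma1) in Ik1ER cells, and none was called. Cpa3 read 8.95 and 8.98 in Ik1ER cells in 4OHT, against 7.92 and 8.14 in Ik1ER cells in ethanol. The difference was 0.93 (SE 0.34, limma, adjusted p = 0.194) and not called. In MigR1 cells replicate 1 read 8.42 in 4OHT and 8.47 in ethanol, and replicate 2 read 7.51 and 7.52, so that the replicates differed by far more than the treatments. Gzma showed the same order in MigR1 cells, with 13.09 and 13.04 on the replicate 1 arrays in 4OHT and ethanol, and 12.80 and 12.81 on the replicate 2 arrays. Ctsw, the brighter probe set of Prf1 and Tbx21 had this order in both treatments too, while the other members did not. The labels do not say whether the replicates were grown apart.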
